A study of Saccharomyces cerevisiae with 26 samples.

Results

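The genes described here encode the enzymes of yeast glycolysis from phosphoglucose isomerase to pyruvate kinase, the enzymes that turn pyruvate into ethanol or acetate, and the enzymes and transporters of glycerol formation. They were chosen by name from knowledge of the pathway, with the hexokinases left out, and their log2 ratios were read over all 9 groups of the study. Of 34 listed genes 33 were measured, each by 1 probe set, among 5445 genes tested. The missing gene is TDH2, a glyceraldehyde-3-phosphate dehydrogenase isoform to which the probe annotation used here ties no probe set. By role, 8 genes belong to the steps from glucose 6-phosphate to the triose phosphates, 10 measured genes to the steps from glyceraldehyde 3-phosphate to pyruvate, 9 to ethanol and acetate formation and 6 to glycerol.

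Glycolysis splits a hexose into a pair of trioses and oxidises them to pyruvate. Yeast then decarboxylates pyruvate to acetaldehyde and reduces it to ethanol, which restores the NAD+ that glyceraldehyde-3-phosphate dehydrogenase uses. Glycerol is made from dihydroxyacetone phosphate by a dehydrogenase and a phosphatase. It serves as a sink for surplus NADH in cells without oxygen and as the solute that balances high external osmolarity. Most steps are encoded by a major gene and by 1 or more paralogs that differ in when they are expressed, so that the same reaction can be carried by different isoenzymes.

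All arrays came from a haploid S288C Mat-alpha yeast kept at 32.5°C and pH 5.5 in synthetic defined medium. Free cells were grown in anaerobic batch culture from 10 g/L glucose and harvested after 12 h (log phase, 2 arrays) or 72 h (stationary, 2 arrays). Another 2 arrays came from an anaerobic chemostat, in which glucose at 1 g/L limited growth and the dilution rate was 0.15 per h. Immobilized cells were held in 3 mm calcium alginate beads packed into a reactor whose feed held 100 g/L glucose, and were sampled at days 1, 3 and 5 (4 arrays each) and at days 10 and 17 (3 arrays each). A day 0 group (2 arrays) precedes these. Its titles call the cells preimmobilized, while its source names place them just after immobilization. RNA was extracted by one method from the bead and day 0 samples and by another from the other free cells. Culture and extraction therefore cannot be told apart in any comparison of beads or day 0 cells with log-phase, stationary or chemostat cells. The glucose fed also differs between the cultures, and the labels name nitrogen for the batch and chemostat cultures but no gas for the bead reactor. Whether replicate arrays stem from different cultures is not in the labels, and the p-values therefore speak to the spread among these samples alone, which may be technical. A lower ratio could come from less of that transcript per cell or from fewer cells that hold it, which arrays of whole cultures cannot separate.

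The deposited value of a probe set is a linear ratio to that probe set's own median over the 26 arrays, and it is given here as log2, so 0 is the median array. Because 18 of the 26 arrays are bead arrays, bead values lie near 0 by construction, and the level of one gene cannot be set against that of another. A gene was called when its adjusted p in limma was under 0.05, Benjamini-Hochberg over all 5445 genes, and its log2 fold change was at least 1 in size (2-fold). "Beads" means days 1 to 17 with the days weighted equally. In 2 bead arrays, replicate 1 of day 3 and replicate 1 of day 5, the median over the 33 genes was -0.48 and -0.62, against -0.10 to 0.10 in the other arrays of those days. Replicate 1 was the lowest array of its day for 26 of the 33 genes at day 3 and for 21 at day 5. These counts were not made over all genes. Without both arrays the number of genes called was 5 (4 with them) against log phase, 14 (13) against stationary cells and 4 (3) against the chemostat. Equal replicate numbers deviated together between days 3 and 5 (correlations of 0.55 to 0.86), so these days are not independent sets of arrays. At day 1 the mean correlation of an array's log2 ratios with those of the others of that day was -0.42 to 0.21 over all genes. It was -0.13 to 0.09 at day 3, -0.09 to 0.09 at day 5, 0.83 to 0.89 at day 10 and 0.11 to 0.40 at day 17. In the groups of 2 arrays it was 0.91 to 0.95. A ratio to a median over mostly bead arrays takes out much of what the bead arrays share. The correlations of bead days and of the other groups are therefore not on one scale of replicate quality. Averaged over 7 control genes, the 3' minus 5' probe difference was -0.42 for log phase, -0.39 for the chemostat, -0.12 for stationary cells and 0.02 to 0.27 on the bead days. The stationary arrays stand apart in their controls. Their poly-A spike signal was 2.55 in log2 against -0.39 in log phase, and ACT1 probes at the 3' end exceeded those at the 5' end by 1.19 against -0.14. The spike signal also varied within bead days, from -2.65 to 0.21 at day 10 and from -2.82 to 1.11 at day 17. The part of these control signals in the differences reported was not tested.

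**Figure D1:**
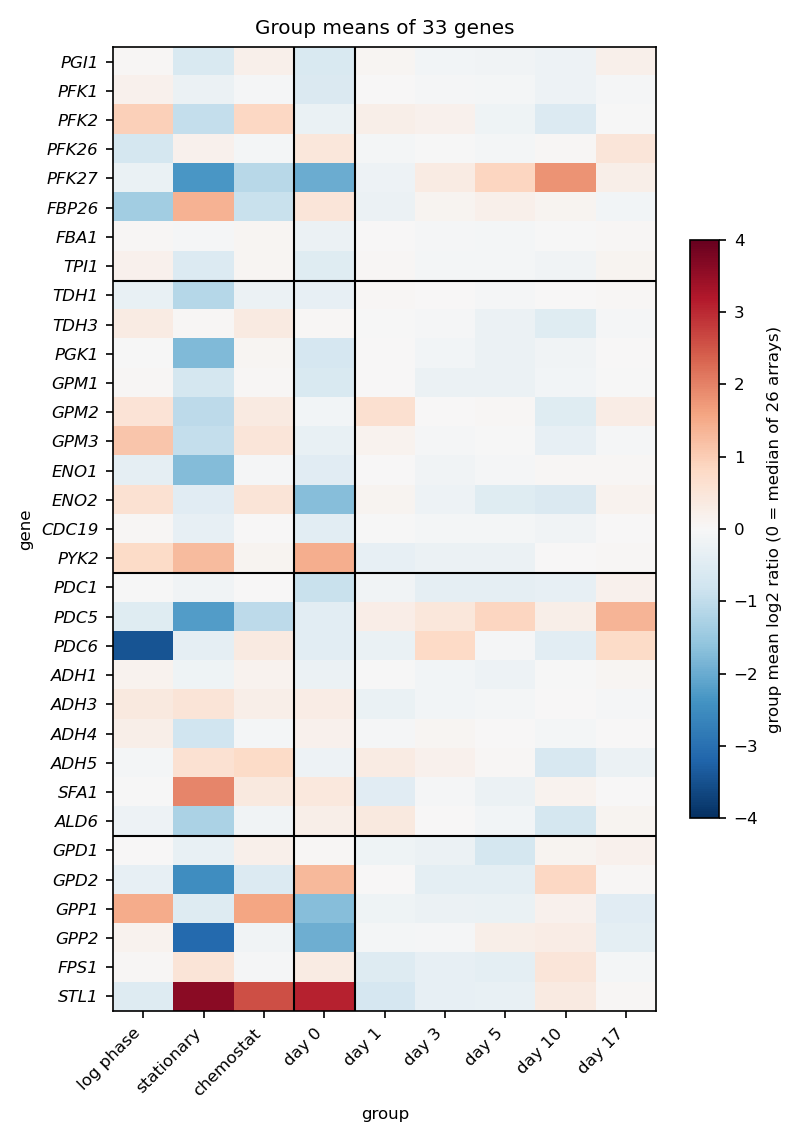
Mean log2 ratio of each of the 33 measured genes (rows, ordered by role and separated by lines) in each of the 9 groups (columns; free cells, day 0 and bead days separated by lines). Red is above and blue below the median of the 26 arrays. STL1, PDC6, PFK27 and GPD2 show the widest spans, and FBA1, CDC19 and ADH1 are almost without colour.

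Against log phase 4 of the 33 genes were called, 2 higher and 2 lower, or 12.1% where 30.5% of all genes were called (15.9% higher and 14.7% lower). Against the chemostat 3 were called, 2 higher and 1 lower, or 9.09% where 19.5% of all genes were called (9.55% higher and 9.94% lower). Against stationary cells 13 were called, 9 higher and 4 lower, or 39.4% where 26.3% of all genes were called (11.8% higher and 14.4% lower). The median log2 fold change over the 33 genes was -0.15, -0.16 and 0.34 against log phase, chemostat and stationary cells, and over all genes it was -0.01, -0.03 and -0.06. These 3 comparisons share the same bead arrays. With the quantile normalization repeated over the genes, 1 gene was called higher and 0 lower against log phase, 6 higher and 2 lower against stationary cells, and 1 higher and 1 lower against the chemostat.

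The genes PGI1, PFK1, FBA1, TPI1, TDH3, GPM1, CDC19, PDC1, ADH1, ADH3 and GPD1 were not called in any comparison made here. They include the only aldolase (FBA1) and triosephosphate isomerase (TPI1), and the main pyruvate kinase (CDC19), pyruvate decarboxylase (PDC1) and ethanol-forming alcohol dehydrogenase (ADH1). For CDC19 the 18 bead arrays ran from -0.42 to 0.11, with log phase at 0.00 and 0.10, the chemostat at 0.00 and 0.01, and stationary cells at -0.31 and -0.36. The bead and free arrays of CDC19 overlapped in all 3 comparisons. The log2 fold changes of CDC19 against log phase, stationary cells and chemostat were -0.10 ± 0.15, 0.28 ± 0.15 and -0.06 ± 0.15 (SE). FBA1 and ADH1 had log2 fold changes between -0.20 and 0.13 in the same 3 comparisons, with SEs of 0.15 and 0.16. TPI1 was higher in beads than in stationary cells by 0.53 ± 0.18 (limma, adjusted p = 0.0242), which was under 2-fold. Against log phase TPI1 was lower in stationary cells (-0.73, adjusted p = 0.017) and at day 0 (-0.65, adjusted p = 0.035, limma), also under 2-fold. A call that fails does not show equal levels, and ratios to a median do not reveal whether a bright probe set was near saturation.

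**Figure D2:**
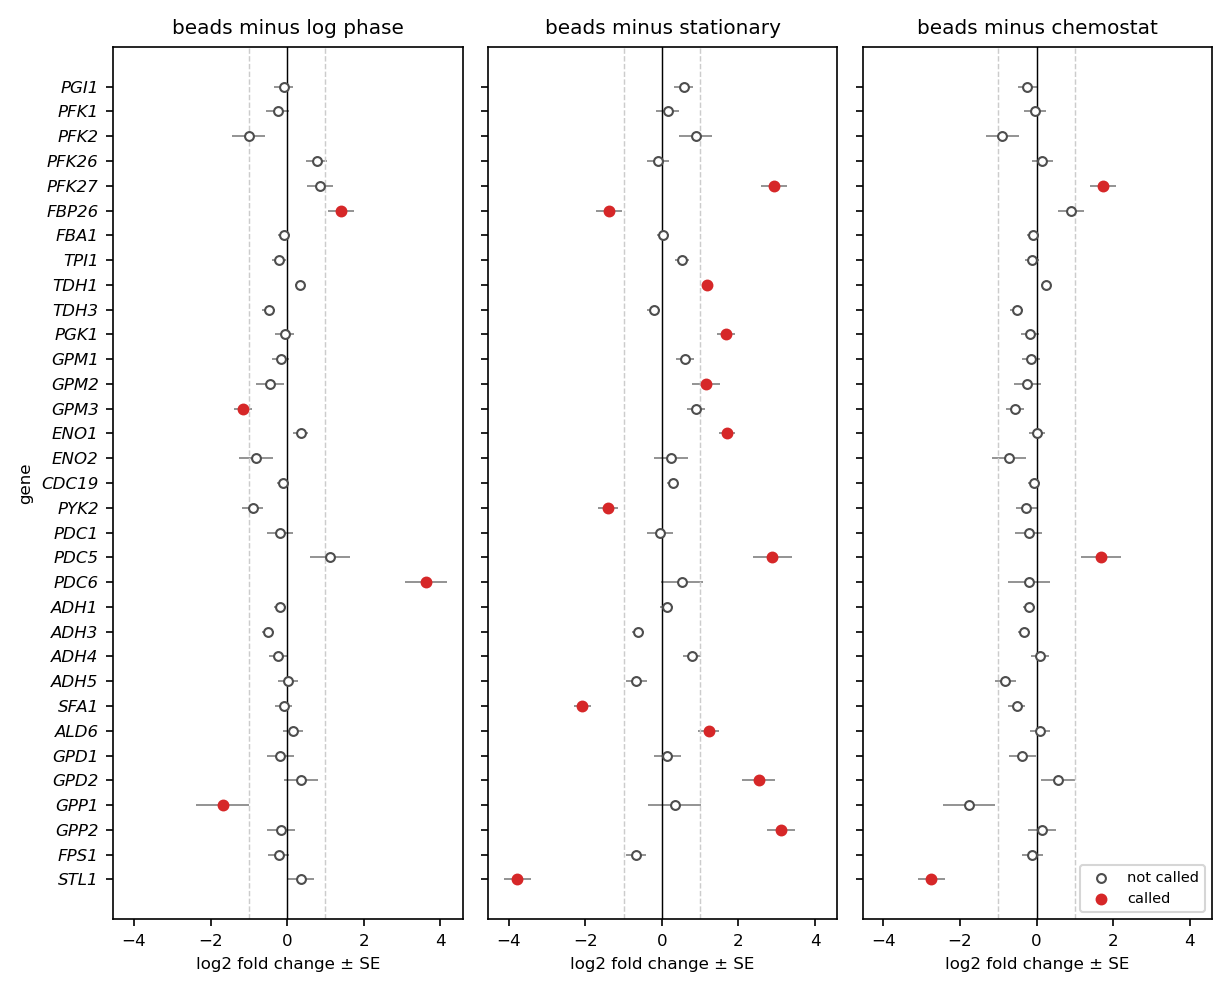
Log2 fold change (horizontal axis, bars ± SE from limma) of beads against log phase, stationary cells and chemostat for the 33 genes; filled red points were called and open points were not, and dashed lines mark a 2-fold change. Against log phase 4 points are filled, against stationary cells 13 and against the chemostat 3, and the points of PGI1, FBA1, CDC19, PDC1 and ADH1 lie between the dashed lines in all 3.

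Among the 8 genes of the upper steps, those that set the level of fructose 2,6-bisphosphate held all the calls between beads and free cells. Fructose 2,6-bisphosphate activates phosphofructokinase; PFK26 and PFK27 encode kinases that make it and FBP26 encodes a phosphatase that removes it. PFK27 stood at -0.32 and -0.19 in log phase, at -2.79 and -1.85 in stationary cells and at -1.34 and -0.90 in the chemostat. The day 0 arrays were at -2.06 and -1.91. In the beads PFK27 ran from -0.75 through a median of 0.60 to 1.96, so every bead array was above every stationary, chemostat and day 0 array, while log phase lay inside the bead range. PFK27 was higher in beads by 2.92 ± 0.34 (7.59-fold, adjusted p = 8.187e-07) than in stationary cells and by 1.73 ± 0.34 (3.31-fold, adjusted p = 0.00067) than in the chemostat. Without replicate 1 of the chemostat the latter difference was 1.51 with an adjusted p of 0.0503. Against log phase the difference was 0.86 ± 0.34, under the 2-fold minimum.

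PFK27 was also the gene of the list that varied most among the bead days. The 4 day 1 arrays were at -0.61, -0.75, -0.17 and 0.72, and the 4 day 3 arrays at -0.01, 0.00, 0.88 and 0.44. The 4 day 5 arrays were at 1.21, 1.17, 0.75 and 0.37, the 3 day 10 arrays at 1.51, 1.96 and 1.91, and the 3 day 17 arrays at 0.64, 0.56 and -0.48. All 3 day 10 arrays were above every other array of the study, and day 17 lay in the range of days 1 to 5. The day means spanned 2.00 in log2, from -0.20 at day 1 to 1.79 at day 10 (limma F-test, adjusted p = 0.0038). With the quantile normalization repeated, the span was 1.62 and the adjusted p 0.0757.

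FBP26, the phosphatase gene, was at -1.48 and -1.31 in log phase, at -1.11 and -0.66 in the chemostat and at 1.34 and 1.44 in stationary cells. The bead arrays ran from -1.40 through a median of 0.00 to 0.83. All bead arrays lay below both stationary arrays, and all but 1, replicate 3 of day 1, lay above both log-phase arrays. FBP26 was 2.65-fold higher in beads than in log phase (log2 1.40 ± 0.34, adjusted p = 0.0020) and 2.60-fold lower than in stationary cells (log2 -1.38 ± 0.34, adjusted p = 0.0026). Both calls were lost with the quantile normalization repeated, at 0.84 and -0.85. PFK26 was not called in the beads, with log-phase arrays at -0.62 and -0.77, chemostat arrays at -0.20 and 0.04, stationary arrays at 0.35 and -0.01 and bead arrays from -0.69 to 1.15.

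PFK1 and PFK2 encode the α and β subunits of phosphofructokinase. PFK2 was at 0.97 and 0.90 in log phase, at 0.84 and 0.81 in the chemostat and at -0.90 and -1.0 in stationary cells, and its bead arrays ran from -1.66 through a median of 0.00 to 0.88. Every bead array of PFK2 was below both log-phase arrays, but the difference of -1.01 ± 0.43 had an adjusted p of 0.0584 and was not called. PFK1 was at 0.17 and 0.17 in log phase, at -0.09 and -0.36 in stationary cells and at -0.02 and -0.06 in the chemostat, inside its bead range of -1.18 to 0.35.

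**Figure D3:**
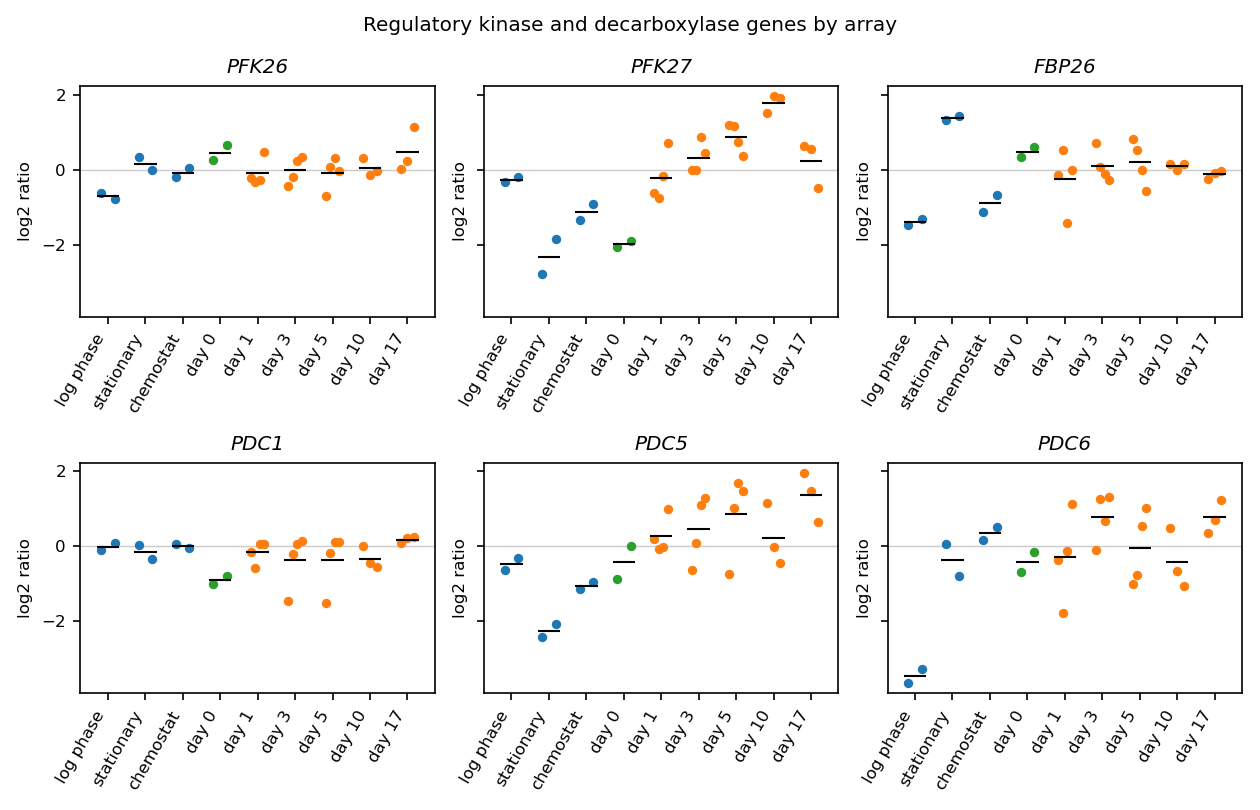
Log2 ratio of every array (points; blue free cells, green day 0, orange bead days) and group mean (black line) for PFK26, PFK27, FBP26, PDC1, PDC5 and PDC6 in the 9 groups. PFK27 has its highest arrays at day 10, up to 1.96; the 2 log-phase arrays of PDC6 lie below -3; PDC1 has its lowest points in single arrays of days 3 and 5.

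Of the 10 measured genes of the lower steps, 4 were higher and 1 lower in beads than in stationary cells, 1 was lower than in log phase and 0 were called against the chemostat by limma, where 2 had an unadjusted p under 0.05. Over all genes 11.8% were higher and 14.4% lower than in stationary cells, 14.7% were lower than in log phase and 19.5% were called against the chemostat. TDH1, which codes for the minor glyceraldehyde-3-phosphate dehydrogenase, had a narrow range in the beads, -0.12 to 0.16. Its log-phase arrays were at -0.40 and -0.22, its chemostat arrays at -0.31 and -0.13, its day 0 arrays at -0.38 and -0.30 and its stationary arrays at -1.36 and -0.94. Every bead array of TDH1 was thus above every array outside the beads, although only the difference from stationary cells, 1.17 ± 0.13 (2.25-fold, adjusted p = 5.349e-07), reached 2-fold. Without replicate 1 of the stationary group it was 0.96, and with the quantile normalization repeated 0.86, so that neither was called. The Affymetrix control probe sets that cover TDH1 from its 3' end to its 5' end were also low in stationary cells, at -0.91 to -1.21 for the 3' set, -3.07 to -3.20 for the middle set and -1.80 to -1.96 for the 5' set.

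TDH3, the major glyceraldehyde-3-phosphate dehydrogenase gene, went the other way against the growing cells. It was at 0.28 and 0.35 in log phase and at 0.36 and 0.34 in the chemostat, above all 18 bead arrays, which ran from -0.78 through -0.08 to 0.16. The differences of beads from log phase (-0.48 ± 0.18, adjusted p = 0.0279) and from the chemostat (-0.52 ± 0.18, adjusted p = 0.0277) were under 2-fold. The stationary arrays, at 0.02 and 0.07, lay inside the bead range.

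PGK1, the only phosphoglycerate kinase gene, was at -2.06 and -1.45 in stationary cells, at -0.09 and 0.04 in log phase and at 0.08 and 0.07 in the chemostat. Its bead arrays ran from -1.06 through 0.01 to 0.16, all above the stationary arrays. PGK1 was 3.18-fold higher in beads than in stationary cells (log2 1.67 ± 0.24, adjusted p = 1.185e-05), and against log phase and chemostat it differed by -0.07 and -0.16. The day 0 arrays were intermediate, at -0.64 and -0.69.

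GPM1 encodes the phosphoglycerate mutase of glycolysis; GPM2 and GPM3 are homologs not known to replace it. GPM3 was at 1.25 and 0.94 in log phase, above all bead arrays, which ran from -0.58 to 0.59, and was 2.23-fold lower in beads (log2 -1.16 ± 0.24, adjusted p = 0.0005). That difference was -0.79 and not called after repeated quantile normalization. In stationary cells GPM3 was at -1.27 and -0.63, below every bead array, and in the chemostat it was at 0.55 and 0.45. GPM2 was at -0.78 and -1.30 in stationary cells, below its bead range of -0.61 to 1.41, and was 2.21-fold higher in beads (log2 1.15 ± 0.36, adjusted p = 0.0139). That call was lost without replicate 2 of the stationary group (0.89, adjusted p = 0.1999), after repeated quantile normalization (0.95, adjusted p = 0.2001) and with days 10 and 17 alone as the beads (0.95, adjusted p = 0.0612). GPM1 itself was at -0.88 and -0.56 in stationary cells, and its bead arrays ran from -0.96 to 0.11.

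ENO1 and ENO2 encode the enolases, of which ENO2 is the glucose-induced one. ENO1 was at -2.04 and -1.41 in stationary cells, below all bead arrays, which ran from -0.79 through 0.02 to 0.14. It was 3.26-fold higher in beads than in stationary cells (log2 1.70 ± 0.20, adjusted p = 1.188e-06). The log-phase arrays of ENO1 were at -0.51 and -0.22 and the chemostat arrays at -0.02 and -0.04. ENO2 was at 0.60 and 0.64 in log phase, at 0.55 and 0.47 in the chemostat and at -0.77 and -0.13 in stationary cells, and its bead arrays spread from -1.87 through 0.00 to 0.62. None of the 3 bead differences of ENO2, -0.82, 0.24 and -0.71 against log phase, stationary cells and chemostat, was called.

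PYK2, the minor pyruvate kinase that glucose represses, was at 0.47 and 1.04 in log phase, at 1.08 and 1.43 in stationary cells, at 0.26 and -0.02 in the chemostat and at 1.64 and 1.26 at day 0. Its bead arrays ran from -1.06 through -0.06 to 0.33, below all log-phase, stationary and day 0 arrays. PYK2 was 2.65-fold lower in beads than in stationary cells (log2 -1.41 ± 0.27, adjusted p = 0.0003), and lower than in log phase by 1.87-fold (log2 -0.90 ± 0.27, adjusted p = 0.0091), under the minimum. The stationary difference was -0.92 and not called after repeated quantile normalization.

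The 3 pyruvate decarboxylase genes behaved differently from each other. PDC1 encodes the main enzyme and PDC5 a minor one known to rise when PDC1 is lost, and PDC6 is a weakly expressed gene known to rise when sulfur is scarce. PDC1 was at -0.10 and 0.09 in log phase, at 0.04 and -0.34 in stationary cells and at 0.06 and -0.04 in the chemostat, and its bead arrays ran from -1.498 through 0.04 to 0.24. Its fold changes against these 3 groups were between -0.21 and -0.05 in log2, with an SE of 0.34. The lowest bead arrays of PDC1, -1.498 and -1.446, were the replicate 1 arrays of days 5 and 3.

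PDC5 was at -0.63 and -0.32 in log phase, at -2.42 and -2.06 in stationary cells and at -1.13 and -0.96 in the chemostat. In the beads it ran from -0.72 through 0.83 to 1.96, above all stationary and chemostat arrays. PDC5 was 7.39-fold higher in beads than in stationary cells (log2 2.88 ± 0.51, adjusted p = 0.0001) and 3.22-fold higher than in the chemostat (log2 1.69 ± 0.51, adjusted p = 0.0153). The chemostat difference was not called without either chemostat array (adjusted p = 0.1616 and 0.1042) or with the quantile normalization repeated, when it was 1.92. Against log phase the difference was 1.11 ± 0.51 with an adjusted p of 0.0777, and without the replicate 1 arrays of days 3 and 5 it was 1.29 with an adjusted p of 0.0094. By day, PDC5 was at 0.19, -0.06, -0.01 and 0.99 at day 1, and at -0.62, 0.08, 1.11 and 1.29 at day 3. It was at -0.72, 1.04, 1.69 and 1.47 at day 5, at 1.17, -0.02 and -0.44 at day 10, and at 1.96, 1.49 and 0.66 at day 17. The days of PDC5 overlapped, and the span of 1.13 between day means was not called (F-test, adjusted p = 0.3651).

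PDC6 set log phase apart from every other group. It was at -3.64 and -3.28 in log phase and nowhere else below -1.78. The stationary arrays were at 0.08 and -0.80, the chemostat arrays at 0.18 and 0.53, the day 0 arrays at -0.69 and -0.16, and the bead arrays ran from -1.78 through 0.42 to 1.31. PDC6 was 12.3-fold higher in beads than in log phase (log2 3.62 ± 0.55, adjusted p = 2.665e-05), and it was the only gene of the list called in that comparison with the quantile normalization repeated. It was also higher than in log phase in stationary cells (log2 3.10 ± 0.73), in the chemostat (3.81 ± 0.73) and at day 0 (3.04 ± 0.73), 3 comparisons that share the same pair of log-phase arrays. The call in the chemostat was lost without replicate 1 of log phase (adjusted p = 0.0757) or replicate 2 of the chemostat (adjusted p = 0.0834). None of these 3 calls held after repeated quantile normalization, when the differences were 1.57 (adjusted p = 0.2502), 2.17 (0.9999) and 1.51 (0.285).

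None of the alcohol dehydrogenases ADH1, ADH3, ADH4 and ADH5 was called in the beads. ADH3, the mitochondrial enzyme, was at 0.52 and 0.27 in log phase and at 0.56 and 0.48 in stationary cells, above all bead arrays, whose highest was 0.22. The ADH3 differences of -0.49 ± 0.16 and -0.61 ± 0.16 were under 2-fold. ADH4 was at -0.81 and -0.76 in stationary cells, below its bead range of -0.48 to 0.46. ADH5 was at 0.79 and 0.72 in the chemostat and at -0.05 and -0.11 in log phase, with bead arrays from -1.13 to 0.85.

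SFA1 encodes a bifunctional enzyme that detoxifies formaldehyde and reduces long-chain aldehydes to alcohols. It was at 1.92 and 1.99 in stationary cells, at 0.48 and 0.31 in the chemostat, at 0.27 and 0.56 at day 0 and at -0.02 and -0.04 in log phase. The bead arrays of SFA1 ran from -1.34 through -0.04 to 0.16, below all of these except log phase. SFA1 was 4.23-fold lower in beads than in stationary cells (log2 -2.08 ± 0.22, adjusted p = 2.462e-07).

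ALD6, the cytosolic aldehyde dehydrogenase that makes acetate and NADPH, was at -1.76 and -0.80 in stationary cells, at -0.22 and -0.20 in log phase and at 0.16 and -0.46 in the chemostat. Its bead arrays ran from -1.10 to 0.70 and overlapped the stationary ones. The 2.34-fold difference of beads from stationary cells (log2 1.22 ± 0.27, adjusted p = 0.0010) was not called without replicate 1 of the stationary group (0.75, adjusted p = 0.1261), after repeated quantile normalization (0.92) or with days 10 and 17 alone as the beads (0.98). At day 10 ALD6 was at -0.14, -0.90 and -1.10 against 0.58, 0.70, 0.04 and 0.26 at day 1, and the day means spanned 1.11 (F-test, adjusted p = 0.0438). That call did not hold with only the bead arrays fitted (adjusted p = 0.0606), after repeated quantile normalization (0.1269), or when any of 10 of the 26 arrays was left out, among them replicates 2 and 3 of day 10 (0.2003 and 0.2198).

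**Figure D4:**
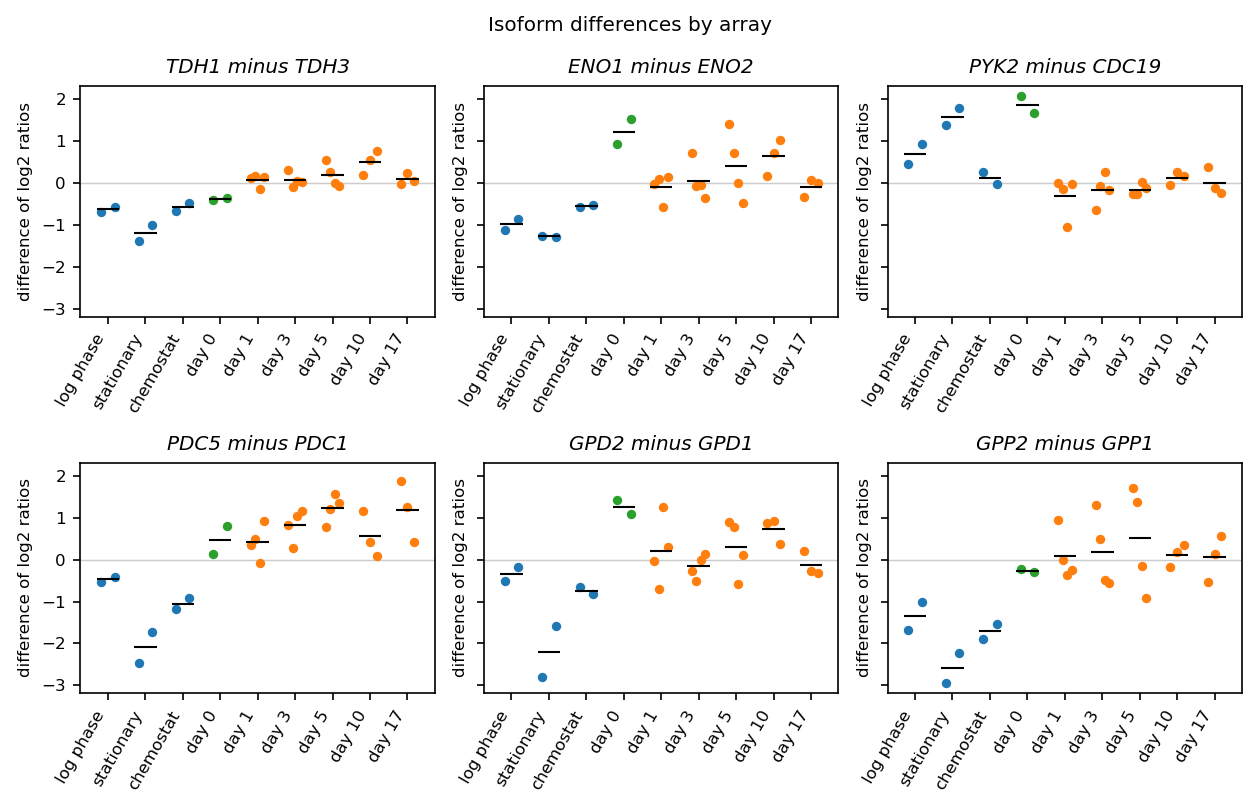
Difference of log2 ratios between 2 isoforms in every array (points; blue free cells, green day 0, orange bead days; black line, group mean) for TDH1 minus TDH3, ENO1 minus ENO2, PYK2 minus CDC19, PDC5 minus PDC1, GPD2 minus GPD1 and GPP2 minus GPP1. The blue points of PDC5 minus PDC1 and GPP2 minus GPP1 all lie below the orange ones; those of PYK2 minus CDC19 lie above them in log phase and stationary cells.

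Isoforms were compared within arrays, by subtracting the log2 ratio of one from that of the other. Such a difference shows a shift in the measured balance of 2 genes between groups of arrays, but not which gene was more abundant. Culture and extraction cannot be told apart in these shifts either, and the part of extraction was not tested. Each of 15 pairs was compared between the 18 bead arrays and the 2 arrays of each free culture by an exact two-sided permutation test, which cannot give a p below 0.0105 here, and p-values were adjusted over the 45 tests. The test takes bead arrays of all days as one set of independent arrays, although those of days 3 and 5 deviated together by replicate number (correlations of 0.55 to 0.86). Its smallest p is reached where bead and free arrays do not overlap, as in 20 of the 45 tests. Of the 45 shifts 23 were called at an adjusted p under 0.05, 8 against log phase, 9 against stationary cells and 6 against the chemostat. With the quantile normalization repeated 11 were called. The rule for shifts had no fold minimum. Pairs of other genes were not tested, so no share over all genes can be set beside these counts.

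The balance of pyruvate decarboxylases moved toward PDC5 against all 3 free cultures. PDC5 minus PDC1 ran from -0.07 to 1.88 over the bead arrays, against -0.53 and -0.40 in log phase, -2.46 and -1.73 in stationary cells and -1.18 and -0.92 in the chemostat. The shift was 1.31, 2.94 and 1.89 in log2 (2.47-, 7.65- and 3.71-fold), each with an adjusted p of 0.0237 by the exact permutation test, and with the quantile normalization repeated all 3 remained called. The day 0 arrays, at 0.14 and 0.81, lay inside the bead range. For PDC6 minus PDC1 the shift of 3.83 against log phase was called, while those against stationary cells (0.59) and chemostat (0.03) were not.

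The balance of glyceraldehyde-3-phosphate dehydrogenases moved toward TDH1 and that of enolases toward ENO1. TDH1 minus TDH3 ran from -0.15 to 0.78 in the beads, and all 6 free arrays lay below, from -1.38 to -0.47. The shift was 0.80, 1.37 and 0.75 against log phase, stationary cells and chemostat (adjusted p = 0.0237 in each exact permutation test), and all 3 remained called with the quantile normalization repeated. ENO1 minus ENO2 shifted by 1.16, 1.45 and 0.72 (adjusted p = 0.0237, 0.0237 and 0.0412, exact permutation test), and of these only the shift against stationary cells remained called with that normalization. At day 0 ENO1 minus ENO2 was already at 0.94 and 1.52, while TDH1 minus TDH3 was at -0.39 and -0.35.

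PYK2 minus CDC19 fell in the beads by 0.82 against log phase and by 1.70 against stationary cells (adjusted p = 0.0237 in both exact permutation tests), and differed by -0.22 from the chemostat, which was not called (adjusted p = 0.4196, exact permutation test). The shift against log phase was -0.60 and not called after repeated quantile normalization (adjusted p = 0.148, exact permutation test), while that against stationary cells remained called. PFK1 minus PFK2 was higher in beads by 0.74 than in log phase and by 0.84 than in the chemostat, and lower by 0.75 than in stationary cells (log2 -0.75), all called. None of these PFK1 minus PFK2 shifts remained called with the quantile normalization repeated. PFK26 minus PFK27 shifted by -3.00 against stationary cells, which was called, and by -1.56 against the chemostat, which was not (adjusted p = 0.0547, exact permutation test). Of the mutases GPM3 minus GPM1 shifted by -0.97 against log phase (adjusted p = 0.0412, exact permutation test), and of the alcohol dehydrogenases ADH4 minus ADH1 shifted by 0.67 against stationary cells. These shifts of PFK26 minus PFK27, GPM3 minus GPM1 and ADH4 minus ADH1 were -2.38, -0.59 and 0.53 after repeated quantile normalization and no longer called (adjusted p = 0.1093, 0.2677 and 0.1353, exact permutation test). That of GPM3 minus GPM1 was also lost with bead days 3 to 17 only (adjusted p = 0.0652, exact permutation test). The shifts of ADH3 and ADH5 against ADH1, and of GPM2 against either mutase, were not called.

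Glycerol genes included the largest changes between beads and starved cells. GPD1 and GPD2 encode the glycerol-3-phosphate dehydrogenases, of which GPD1 is known to respond to osmotic stress and GPD2 to lack of oxygen. GPD1 was at -0.20 and 0.23 in log phase, at -0.08 and -0.53 in stationary cells, at 0.23 and 0.18 in the chemostat and at 0.04 and 0.06 at day 0. Its bead arrays ran from -1.70 through -0.02 to 0.34, and its differences from the free cultures lay between -0.37 and 0.14 with an SE of 0.35.

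GPD2 was at -2.88 and -2.12 in stationary cells, below all bead arrays, which ran from -1.47 through 0.02 to 1.23. It was 5.76-fold higher in beads than in stationary cells (log2 2.53 ± 0.44, adjusted p = 0.0001). In log phase GPD2 was at -0.72 and 0.06 and in the chemostat at -0.43 and -0.64, inside the bead range, and at day 0 it was at 1.47 and 1.15. GPD2 minus GPD1 shifted by 2.37 against stationary cells and by 0.92 against the chemostat (adjusted p = 0.0237 and 0.0412, exact permutation test), and the second of these was lost after repeated quantile normalization (0.86, adjusted p = 0.1842, exact permutation test). Against log phase the shift of 0.52 was not called.

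GPP1 and GPP2 encode the 2 glycerol-3-phosphatases. GPP2 was at -3.60 and -2.63 in stationary cells and at -2.01 and -1.92 at day 0, at 0.12 and 0.19 in log phase and at -0.24 and -0.03 in the chemostat. Its bead arrays ran from -1.26 through 0.05 to 0.82, above the stationary and day 0 arrays. GPP2 was 8.66-fold higher in beads than in stationary cells (log2 3.11 ± 0.37, adjusted p = 1.149e-06), and against log phase and chemostat it differed by -0.15 and 0.14.

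GPP1 was at 1.81 and 1.19 in log phase, at 1.65 and 1.51 in the chemostat, at -0.66 and -0.39 in stationary cells and at -1.79 and -1.63 at day 0. Its bead arrays spread from -1.97 through -0.01 to 1.32, the widest bead range of the list. All bead arrays of GPP1 were below both chemostat arrays, and 1 of them lay between the log-phase arrays. GPP1 was 3.22-fold lower in beads than in log phase (log2 -1.69 ± 0.68, adjusted p = 0.0460), a call that was lost when any of 16 of the 26 arrays was left out, and without either log-phase array the adjusted p was 0.2996 or 0.1168. It was also lost after repeated quantile normalization (-1.23, adjusted p = 0.3539) and with days 10 and 17 alone as the beads (-1.64, adjusted p = 0.0710). Against the chemostat the difference of -1.77 ± 0.68 had an adjusted p of 0.0511. GPP2 minus GPP1 ran from -0.91 to 1.70 over the bead arrays and from -2.94 to -1.003 over the 6 free arrays. The shift toward GPP2 was 1.55, 2.79 and 1.92 against log phase, stationary cells and chemostat (adjusted p = 0.0237 in each exact permutation test). With the quantile normalization repeated the shift against stationary cells remained called, and those against log phase and chemostat were 1.15 and 1.57 and were not.

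FPS1 encodes the channel through which glycerol leaves the cell and STL1 the proton symporter that takes it up. STL1 showed the largest changes of the list against stationary and chemostat cells. It was at 3.05 and 4.15 in stationary cells, at 2.94 and 2.23 in the chemostat and at 3.48 and 2.66 at day 0, but at -0.50 and -0.56 in log phase. The bead arrays ran from -1.14 through -0.26 to 0.61, far below the first 3 groups and around the log-phase arrays. STL1 was 13.7-fold lower in beads than in stationary cells (log2 -3.77 ± 0.36, adjusted p = 6.186e-08) and 6.74-fold lower than in the chemostat (log2 -2.75 ± 0.36, adjusted p = 1.049e-05), and it differed from log phase by 0.36 ± 0.36.

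FPS1 varied less. It was at 0.13 and -0.01 in log phase, at 0.00 and -0.12 in the chemostat and at 0.39 and 0.64 in stationary cells, with bead arrays from -1.34 to 0.62. Its highest bead day was day 10, at 0.29, 0.55 and 0.62, against -0.77, -1.34, -0.23 and 0.23 at day 1. The day means spanned 1.01 with an adjusted p of 0.04999 (F-test), and the call was lost when any of 22 of the 26 arrays was left out, without the replicate 1 arrays of days 3 and 5 (adjusted p = 0.0655), with only the bead arrays fitted (0.1204) or with the quantile normalization repeated (0.1316).

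**Figure D5:**
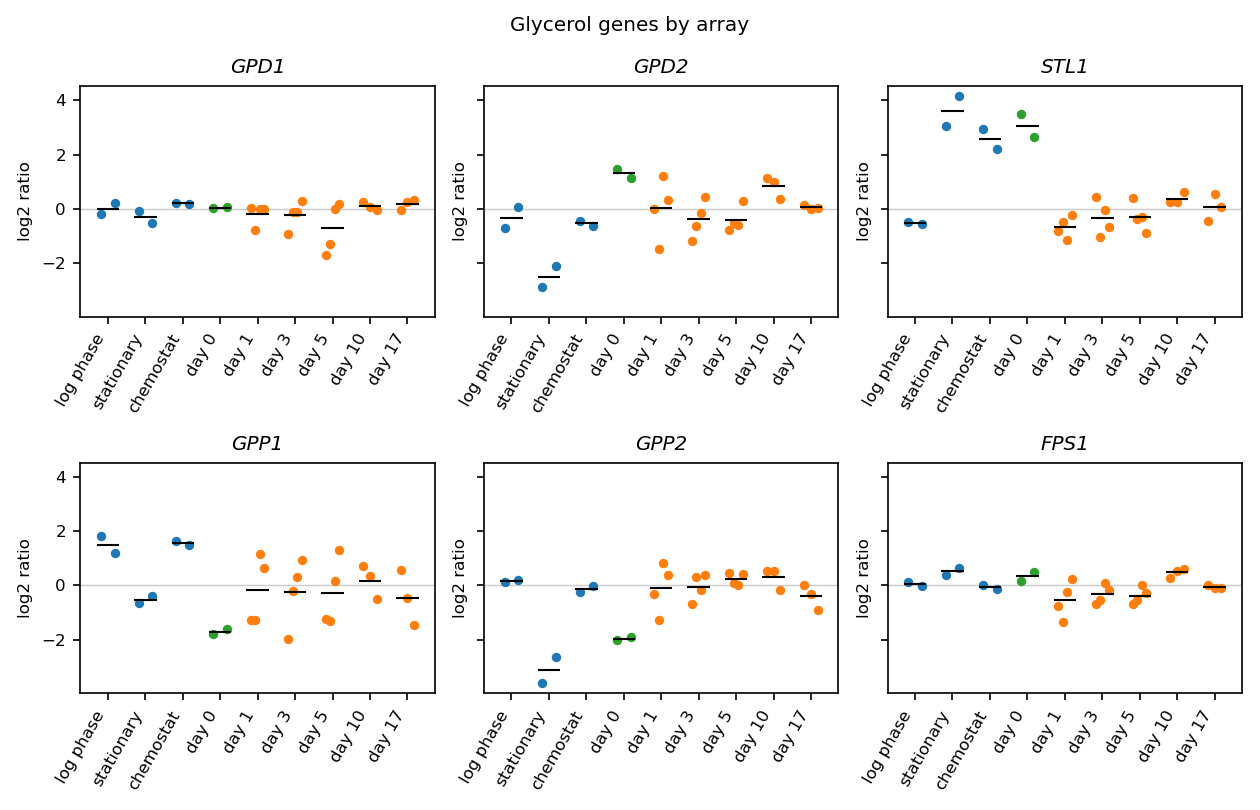
Log2 ratio of every array (points; blue free cells, green day 0, orange bead days) and group mean (black line) for GPD1, GPD2, STL1, GPP1, GPP2 and FPS1 in the 9 groups. STL1 lies above 2 in the stationary, chemostat and day 0 arrays and between -1.14 and 0.61 in the beads; GPD2 and GPP2 have their lowest arrays in stationary cells.

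The entry into the beads was followed through day 0 and day 1. At day 0, 10 of the 33 genes differed from log phase, 5 higher and 5 lower, or 30.3% against 36.4% of all genes (18.6% higher and 17.8% lower). In this comparison too, culture and extraction cannot be told apart. PFK26 (log2 1.16 ± 0.37), FBP26 (1.88 ± 0.46), PDC6, GPD2 (1.63 ± 0.59) and STL1 (3.60 ± 0.48) were higher at day 0, and PFK27 (-1.73 ± 0.45), GPM3 (-1.38 ± 0.32), ENO2 (-2.31 ± 0.59), GPP1 (-3.20 ± 0.92) and GPP2 (-2.12 ± 0.49) were lower. The calls of PFK26, GPD2 and GPP1 were each lost without at least 1 array of these groups, and 2 genes, 1 higher (STL1) and 1 lower (GPP2), were called with the quantile normalization repeated.

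From day 0 to day 1, PFK27 (log2 1.78 ± 0.39, adjusted p = 0.0016), ENO2 (1.80 ± 0.51, adjusted p = 0.0113) and GPP2 (1.88 ± 0.42, adjusted p = 0.0022) rose, and PYK2 (-1.77 ± 0.32, adjusted p = 0.0003) and STL1 (-3.74 ± 0.41, adjusted p = 1.304e-06) fell. These 5 genes were 15.2% of the 33, against 20.3% of all genes (9.97% higher and 10.3% lower). For STL1 the 4 day 1 arrays were at -0.82, -0.50, -1.14 and -0.23, below the day 0 arrays by more than 2 in log2. For ENO2 the day 1 arrays were at -0.02, -0.14, 0.62 and -0.02 against -1.51 and -1.88 at day 0, and the call was lost without replicate 2 of day 0 (adjusted p = 0.1215) and after repeated quantile normalization (1.43, adjusted p = 0.2238). GPP2 rose from -2.01 and -1.92 to -0.30, -1.26, 0.82 and 0.40, and with only these 2 groups fitted the adjusted p was 0.0784.

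Between day 1 and day 17, 0 of the 33 genes were called by limma, against 0.294% of all genes (0.257% higher and 0.0367% lower at day 17), and 2 had an unadjusted p under 0.05. These were ADH5 (log2 -0.58 ± 0.27) and SFA1 (0.48 ± 0.22). With array weights 3 of the 33 genes were called, all higher at day 17. With these weights 759 of all 5445 genes were called, against 16 in the main fit. Among all bead days 3 genes differed by the F-test, PFK27, ALD6 and FPS1, or 9.09% against 20.9% of all genes, and each of the 3 had its extreme mean at day 10. Over all 9 groups 18 of the 33 genes differed, or 54.5% against 72.2% of all genes.

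The free cultures frame these differences. Stationary cells differed from log phase in 15 of the 33 genes, 4 higher and 11 lower, or 45.5% against 44.5% of all genes (22.8% higher and 21.7% lower), and in 3 higher and 4 lower with the quantile normalization repeated. FBP26 (log2 2.78 ± 0.46), PDC6, SFA1 (1.99 ± 0.29) and STL1 (4.13 ± 0.48) were the higher genes, and GPP2 (-3.27 ± 0.49), GPD2 (-2.17 ± 0.59) and PFK27 (-2.06 ± 0.45) the lowest. The others that were lower were PFK2, PGK1, GPM2, GPM3, ENO1, PDC5, ADH4 and ALD6, from -2.04 (GPM3) to -1.02 (ADH4). The calls of GPM2, PDC5, ADH4, ALD6 and GPD2 were each lost without at least 1 of the 4 arrays. The chemostat differed from log phase in 2 genes, PDC6 and STL1 (log2 3.11 ± 0.48, adjusted p = 0.0004), both higher, or 6.06% against 2.28% of all genes (1.76% higher and 0.514% lower). Neither was called with the quantile normalization repeated.

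Beyond the listed genes, 26 further genes of the pathway were read, and all were measured. Among 8 regulators of glycolysis and of the osmotic response, TYE7, which encodes an activator of glycolytic genes, was higher in beads than in all 3 free cultures (log2 1.67, 2.17 and 1.32 with an SE of 0.37 against log phase, stationary cells and chemostat). With the quantile normalization repeated, TYE7 was called against stationary cells only, and without either chemostat array it was not called against the chemostat (adjusted p = 0.1463 and 0.0645). The regulator genes GCR2 (log2 -1.16) and RAP1 (-1.10) were lower than in stationary cells, and the other 5 were not called in the beads. Of the 8 regulators 12.5%, 37.5% and 12.5% were called against log phase, stationary cells and chemostat, where 30.5%, 26.3% and 19.5% of all genes were called. After repeated quantile normalization neither GCR2 (-0.75) nor RAP1 (-0.95, adjusted p = 0.1103) was called. RAP1 was also not called without either stationary array (adjusted p = 0.1590 and 0.1020), or with days 3 to 17 (-0.93) or days 10 and 17 (-0.74) as the beads. GCR1, whose product activates glycolytic genes together with that of GCR2, differed by -0.08, 0.35 and 0.14.

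Among 7 genes of glycerol use and dihydroxyacetone metabolism, 3 were lower and 1 higher in beads than in stationary cells, against 14.4% and 11.8% of all genes. GUT1, the glycerol kinase, was lower by 4.73-fold (log2 -2.24 ± 0.30) and GUT2, the mitochondrial glycerol-3-phosphate dehydrogenase, by 4.81-fold (log2 -2.27 ± 0.54). The dihydroxyacetone kinase gene DAK1 had a call against stationary cells (1.19 ± 0.26) that was lost after repeated quantile normalization (0.90, adjusted p = 0.0952) and with days 10 and 17 alone as the beads (0.77), its day 10 mean of -1.15 being near the stationary mean of -1.31. DAK2, the only one of the 7 called against the other free cultures, was higher than in log phase (1.55 ± 0.42) and in the chemostat (1.86 ± 0.42). That is 14.3% of the 7 in each comparison, where 30.5% and 19.5% of all genes were called. The DAK2 calls were lost without replicate 1 of log phase (adjusted p = 0.0583) or of the chemostat (0.0502), the first also after repeated quantile normalization (1.12, adjusted p = 0.1069), and that of GUT2 with the quantile normalization repeated (log2 -1.65, adjusted p = 0.0552).

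Among 7 genes that oxidise ethanol, acetaldehyde and acetate, 3 were higher and 2 lower in beads than in log phase, 1 was higher and 4 lower than in stationary cells, and 1 was higher and 3 lower than in the chemostat. Of all genes 30.5%, 26.3% and 19.5% were called in these comparisons. After repeated quantile normalization ALD3, ALD5 and ACS2 were no longer called against log phase, nor ALD2 and ALD4 against stationary cells. The calls of ACS1, ALD4 and ALD5 against the chemostat were also lost with it. ADH2, the glucose-repressed alcohol dehydrogenase that consumes ethanol, was lower in beads than in stationary cells (log2 -1.44 ± 0.27) and chemostat (-1.27 ± 0.27, not called without replicate 1 of the chemostat, adjusted p = 0.0552), and with days 10 and 17 alone as the beads neither was called (-0.89 and -0.73). At day 0 it was higher than in log phase by 5.73 ± 0.37, and it fell by 7.19 in log2 from day 0 to day 1. ACS1, an acetyl-CoA synthetase that glucose represses, was 6.40-fold higher in beads than in log phase (log2 2.68 ± 0.37). Of 4 other alcohol and butanediol dehydrogenases, 2 were higher and 1 lower than in log phase, 1 higher and 2 lower than in stationary cells and 1 higher than in the chemostat, where again 30.5%, 26.3% and 19.5% of all genes were called. BDH2 was 3.46-fold higher in beads than in log phase and 4.99-fold lower than in stationary cells, and the first call was lost with the quantile normalization repeated (log2 0.97). With it the calls of ADH6 (-1.04) and ADH7 (0.87) against log phase were also lost. So were those of BDH1 against stationary cells (-0.74) and BDH2 against the chemostat (0.996).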

How the data were processed

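RNA of 26 samples in 9 groups was measured on Affymetrix yeast arrays. Per the submitters' processing notes the authors used RMA, whose version the sources used here do not give, and the deposited values are linear ratios, from 0.0102 to 158.7. The median ratio of each probe set over the 26 arrays lies between 0.9905 and 1.047, so signal levels are lost, and the number of arrays limits the precision. Of 10928 probe sets, 5498 belong to 1 yeast gene in the platform annotation and stand for 5449 genes; of several probe sets of a gene that of the largest mean ratio was taken, and 4 genes with missing values were left out. Log2 ratios were fitted with limma 3.58.1 (R 4.3.3, lmFit and eBayes, 9 group means). Isoform differences were tested with scipy 1.17.1 in Python 3.11.15, and matplotlib 3.10.9 drew the figures. The fit was tested on simulated data.

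The genes, lists and tests were chosen with earlier results of these data known. Most genes called between beads and free cells or among bead days have each free array given and their bead arrays given by range. So do most of their isoforms. Single arrays of every bead day are given in the text for PFK27 and PDC5 only. Other genes are given in less detail. A planned motif search in promoters was not run, since sequences were not used here, and genes are given without coordinates because no build is stated for the values. Equal replicate numbers did not pair arrays between the sides of the pairwise comparisons reported (correlations of deviations from -0.32 to 0.26), so the fits have no block. Day 5 and day 3 arrays did pair, at 0.86, 0.55, 0.85 and 0.79. These days were not compared with each other alone, but both enter the bead mean and the F-tests as unpaired groups. The p-values of those results take the arrays of both days as independent. Alternatives were another normalization, array shift, probe set averages, no fold minimum, another prior, array weights, only the groups compared, the replicate number as a block, other bead days, a filter on genes that vary least, and leaving out each array. The alternatives without both replicate 1 arrays of days 3 and 5, and with crossed numbers, were chosen after seeing the data.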

Additional observations from a re-analysis of the deposited data

Results flagged for a closer look

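In groups of 4 arrays, a value was singled out where its gap to the nearest other array exceeded the critical share of the group's range in Dixon's test. Of 99 sets of 4 arrays (33 genes at days 1, 3 and 5), 18 had such a value, or 18.2%, where chance alone gives about 1 in 20. The genes of 1 array are not independent of each other. The share of such values over all genes was not computed, so 18.2% cannot be read as a trait of these genes.

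Of these, 12 were low values of replicate 1 of day 3 or day 5. At day 3 these were PFK1 (-0.87), PGK1 (-0.67), GPM1 (-0.96), ENO1 (-0.79), ENO2 (-1.51), CDC19 (-0.41) and ADH1 (-0.47). At day 5 they were PFK1 (-1.18), FBA1 (-0.48), TPI1 (-0.64), PGK1 (-1.06) and ENO1 (-0.46). Most are major glycolytic isoenzymes, and in these 2 arrays they were low together. The 3' minus 5' difference of the ACT1 probes was 0.38 and 0.45 in these 2 arrays, against -0.12 to 0.13 in the other arrays of those days. Its part in the low values was not tested.

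The other 6 were spread over 4 arrays. Day 1 replicate 2 was low for SFA1 (-1.34) and GPD1 (-0.78), and day 5 replicate 2 was low for SFA1 (-0.60). Day 1 replicate 4 was high for PFK26 (0.48), day 1 replicate 3 was high for ENO2 (0.62) and day 3 replicate 2 was high for ADH5 (0.65).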

How the results depend on the processing

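No value called between cultures or days reversed under any alternative run. Repeating the quantile normalization over the genes lowered the number of genes called most: from 4 to 1 for beads against log phase, 13 to 8 against stationary cells, 15 to 7 for stationary against log phase, 2 to 0 for chemostat against log phase, 10 to 2 for day 0 against log phase, 3 to 0 among bead days, 18 to 8 over the 9 groups, and 23 to 11 for isoform shifts. It also lowered the calls over all genes, from 1662 to 516 for beads against log phase, and the cause was not tested. Without the fold minimum, 10, 20 and 6 genes passed for beads against log phase, stationary cells and chemostat, and 8 for day 1 against day 0, which follows from the rule. With array weights 3 genes were called for day 17 against day 1 and 9 among bead days. Over all genes the calls rose with these weights from 16 to 759 and from 1136 to 2247. With only the bead arrays fitted 1 gene was called among bead days, and 695 over all genes. The cause of these changes was not tested. With the replicate block 5 genes were called for beads against chemostat and 8 for day 1 against day 0. The counts in the other comparisons stayed within 1.5 times. Arrays share only a number there, and the correlations of the deviations gave no pairing apart from that of days 3 and 5. The deviations of day 0 and log phase correlated at -0.18, and crossed numbers gave 11 calls. Leaving out 1 array at a time gave 3 to 5 calls for beads against log phase, 11 to 13 against stationary cells, 1 to 4 against the chemostat, 11 to 16 for stationary and 1 to 2 for chemostat against log phase, 8 to 11 for day 0 against log phase, 4 to 8 for day 1 against day 0, 0 to 1 for day 17 against day 1, 1 to 5 among bead days, 16 to 20 over the 9 groups and 23 to 24 isoform shifts. Where 1 array of a group was left, its spread was taken to equal that of the other groups. Leaving out a free array gives no isoform test, because 18 arrays against 1 cannot pass the threshold.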
